A study of Mus musculus with 2 samples.

Results

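The genes described here are the carriers that move amino acids, sugars, small peptides and related small metabolites across cell membranes, taken as every gene row named Slc1a, Slc2a, Slc3a, Slc5a, Slc6a, Slc7a, Slc15a, Slc16a, Slc36a, Slc38a or Slc43a followed by a number and nothing else. There were 87 such genes among 16943 nuclear gene rows. Of these, 47 had 100 or more reads over both plates (124 for Slc15a1 to 9409 for Slc38a1), and 40 had 1 to 91 reads. Close below the limit stood Slc7a9 with 88 reads. Symbols with a further letter, such as Slc6a20a and Slc5a4a, lie outside this rule. The 47 genes with enough reads are described by name or by range, and the other 40 by their counts.

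Single cells positive for Ngn3-RFP were sorted from mouse small intestinal organoids (jejunum and ileum, genotype given as Neurog3-RFP hom) after 48 h with the solvent DMSO or with ISX-9, a small molecule known as an inducer of neuronal differentiation. Ngn3 (Neurog3) is a transcription factor needed to form enteroendocrine cells, and RFP is a red fluorescent reporter. All cells of both plates carry the reporter genotype, no unsorted cells are compared, and each treatment is 1 plate of 384 wells with 1 cell sorted per well. The plates were made by SORT-seq, in which the 3′ ends of polyadenylated RNA are counted per well, and the deposited values are reads, not molecules.

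Amino acid carriers work as exchangers, which trade 1 amino acid for another, or as pumps coupled to sodium or protons. Several light chains of the Slc7 family reach the membrane only when bound to a heavy chain of the Slc3 family. Enteroendocrine cells use some of the same carriers that absorb nutrients, among them the sodium-coupled glucose carrier Slc5a1 and the peptide carrier Slc15a1, to sense the contents of the gut before they release hormones.

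The promoters of the 2 members shown next carry a motif 2 times, and the gene of each is among those with differences described further on. Promoter windows from RefSeq (GRCm38.p6, 250 bases before to 50 bases after the transcription start) were found for 34 of the 47 genes. Capitals mark TGATGNAA, the letters of the response element bound by C/EBP and ATF factors, in the first sequence and CACGTG, an E-box, in the second, on either strand. The first sequence is the 250 bases at chr3:50443614-50443863 (minus strand) before the start of Slc7a11, and the second the 250 bases at chr11:55204090-55204339 (plus strand) before the start of Slc36a1.
Slc7a11: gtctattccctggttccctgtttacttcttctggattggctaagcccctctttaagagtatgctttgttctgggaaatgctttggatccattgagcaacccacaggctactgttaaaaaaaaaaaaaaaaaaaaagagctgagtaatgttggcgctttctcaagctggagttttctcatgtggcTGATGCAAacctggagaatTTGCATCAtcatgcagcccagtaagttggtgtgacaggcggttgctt
Slc36a1: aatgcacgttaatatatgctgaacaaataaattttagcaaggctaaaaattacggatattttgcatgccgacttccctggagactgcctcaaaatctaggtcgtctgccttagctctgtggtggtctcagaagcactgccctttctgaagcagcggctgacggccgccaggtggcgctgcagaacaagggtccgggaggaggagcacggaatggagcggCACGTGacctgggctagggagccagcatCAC
TGATGNAA occurred in 3.97% of all 32851 windows of the same length, and 2 or more times in 0.0700% of them. Among the transporters, the windows of Slc7a11, Slc1a4 and Slc7a7 held it, with the matches of Slc7a11 at -66 to -59 and -47 to -40 from the start. A window of Slc7a7 also held it 2 times, at -141 to -134 and at -1 to 7. CACGTG occurred in 7.15% of all windows, and 2 or more times in 0.594% of them. Of the 34 transporters with windows 7 held it, namely Slc16a1, Slc16a12, Slc36a1, Slc38a7, Slc43a1, Slc5a1 and Slc7a14. In Slc36a1 it stood at -31 to -26 and again at -3 to 3, so that the last 3 capitals are the beginning of the second match. CAGATG, another E-box, occurred in 17.2% of all windows and in those of 7 of the 34 transporters (Slc15a1, Slc2a9, Slc38a9, Slc43a1, Slc5a1, Slc6a9 and Slc7a8). A transporter counts with a match in any of its windows, so these counts and the shares of windows are unlike measures. The motif CACGTG was chosen after values of these genes had been seen, and a match is only a description of the letters.

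Wells with 2000 or more nuclear reads and 500 or more genes were kept, which left 300 DMSO and 290 ISX-9 wells. A kept well held 26340 nuclear reads at the median in the DMSO plate (2295 to 489134) and 22510 in the ISX-9 plate (2007 to 326339). Mitochondrial reads made up 26.0% and 24.7% of all reads, and the ribosomal RNA precursor Rn45s took 12.6% and 6.10% of the nuclear reads of kept wells. Levels are CPM, the reads summed over the wells and scaled to a common total of nuclear reads, with exact 95% Poisson intervals that cover counting error only, and 3 counts, taken as the limit that a count of 0 allows, correspond to 0.203 CPM with DMSO and 0.254 CPM with ISX-9. Of 10 enterocyte markers, 9 had a read with DMSO and 10 with ISX-9, with summed levels of 908 and 1033 CPM. Of 6 enteroendocrine markers all had reads in both plates (13137 and 14052 CPM), and goblet markers stood at 9412 and 4067 CPM and Paneth markers at 11677 and 2690 CPM. Immune and mesenchymal markers summed to 129 and 157 CPM, nearly all of it Vim and Pecam1, while Cd3e and Col3a1 were at 0 in both plates.

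Since each treatment has 1 library, the differences below compare these 2 plates and have no replicate check and no p-value. They are log2 values of the ISX-9 level divided by the DMSO level, each with 5 CPM added, which understate the difference of genes with low levels, and fewer cells with a gene and fewer reads per cell cannot be told apart in summed reads. The transporters held much the same share of RNA in both plates: all 87 together summed to 2708 CPM with DMSO and 2672 CPM with ISX-9. Of the 47, 31 had a positive and 16 a negative log2 ratio, beside 7404 and 3603 of all 11007 genes with 100 reads, a similar split. The median of the 47 was 0.20, beside 0.15 over all these genes. Scaling by the median of ratios moved the median of all genes to -0.02, and scaling by spike-in reads to -0.06. By scaling alone, a log2 ratio under about 0.2 in size thus has no fixed sign. Other alternatives changed the sign of some larger ratios as well, such as that of Slc16a13 (0.46, -0.57 to 0.72). Of the 47, 5 were 2-fold or more higher in the ISX-9 plate, where 5.33% of all genes were, and 3 were 2-fold or more lower, where 1.11% of all genes were. With the median of ratios the split was 4 higher and 4 lower, and the shares of all genes for that scaling are not given here.

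**Figure D1:**
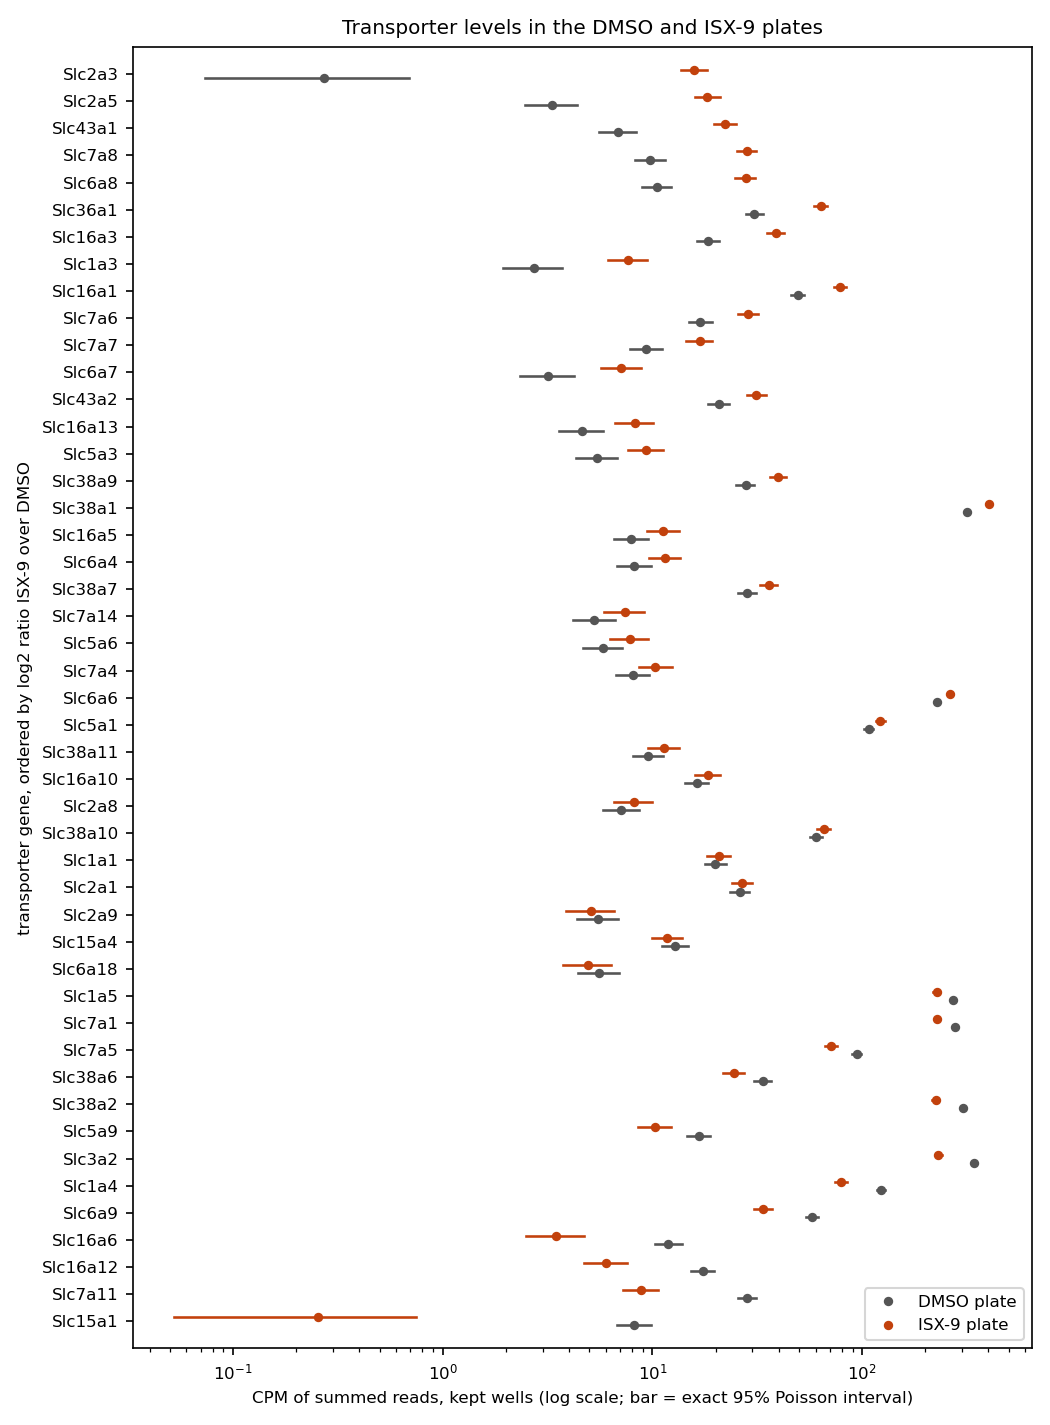
Levels of the 47 transporters with 100 or more reads, as CPM of the reads summed over kept wells on a log axis, in the DMSO plate (grey) and the ISX-9 plate (orange), with exact 95% Poisson intervals as bars and genes ordered by their log2 ratio. Most pairs of points lie close together, Slc38a1 and Slc3a2 are among the highest, and Slc2a3 at the top and Slc15a1 at the bottom are the most separated pairs.

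The 6 members with the highest mean level of the plates were the carriers of glutamine and other neutral amino acids Slc38a1, Slc38a2 and Slc1a5, the heavy chain Slc3a2, the cationic amino acid carrier Slc7a1 and the taurine carrier Slc6a6. Slc38a1, a sodium-coupled glutamine carrier, stood at 317 CPM in the DMSO plate (308 to 326; a read in 65.7% of wells) and at 401 CPM in the ISX-9 plate (389 to 412; 67.9%). Slc38a2, a close relative that is known to be raised when amino acids are short, stood at 303 CPM (294 to 312; 62.0%) and 224 CPM (215 to 233; 57.6%). The order of this pair thus opened in the ISX-9 plate, but the log2 ratio of Slc38a1 was 0.33 in summed reads and -0.02 as a mean of per-well CPM, so its direction depends on how the wells are weighted. For Slc38a2 the log2 ratio was -0.43 and stayed negative in every alternative tried (-0.68 to -0.13).

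Slc3a2, the heavy chain that carries several Slc7 light chains to the membrane, was the most abundant member of the DMSO plate. It had 5057 reads there, 343 CPM (333 to 352; 55.0% of wells), and 2717 reads in the ISX-9 plate, 230 CPM (222 to 239; 52.4%). The level was 1.49-fold higher in the DMSO plate (1.42 to 1.56), with about the same share of wells. Its partner Slc7a5, which takes up large neutral amino acids such as leucine, went from 94.2 CPM (89.3 to 99.3; 39.7% of wells) to 71.0 CPM (66.3 to 76.0; 35.9%), a log2 ratio of -0.38. Wells with a Slc7a5 read also had a Slc3a2 read in 72.3% of cases with DMSO and 74.0% of cases with ISX-9, against 43.6% and 40.3% of wells without one. Wells with a Slc7a5 read were deeper, with a median of 66321 against 14506 reads with DMSO and 63072 against 11780 with ISX-9, and the part of depth in this was not tested.

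The light chains of Slc3a2 did not go one way. Slc7a11, which exchanges glutamate for cystine, had 418 reads in the DMSO plate, 28.3 CPM (25.7 to 31.2), in 34 wells and 104 reads in the ISX-9 plate, 8.81 CPM (7.20 to 10.7), in 13 wells. It was 3.21-fold higher in the DMSO plate (2.59 to 4.02; log2 ratio -1.27, -1.58 to -0.90 over the alternatives). Slc7a8, another exchanger of neutral amino acids, went the other way, from 9.76 CPM (8.23 to 11.5) in 17 wells to 28.1 CPM (25.2 to 31.3) in 44 wells, 2.88-fold higher in the ISX-9 plate (2.36 to 3.53). Slc7a6 and Slc7a7, which exchange cationic for neutral amino acids, were at 16.9 and 9.35 CPM with DMSO and at 28.6 and 16.8 CPM with ISX-9. Of the 6 exchangers and light chains with 100 reads, 3 had a positive and 3 a negative log2 ratio, and their median of 0.11 lay beside 0.15 for all genes. In the DMSO plate, 33.3% of Slc7a7 reads came from 1 well.

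Among the other amino acid carriers, the summed level of the Slc1 group was 418 CPM with DMSO and 335 CPM with ISX-9 and that of the cationic group 293 and 249 CPM, whereas the Slc43 group stood at 28.1 and 53.6 CPM and the Slc36 group at 31.5 and 64.5 CPM. Slc7a1, which takes up arginine and lysine, was at 277 CPM (269 to 286; 50.7% of wells) in the DMSO plate and 228 CPM (219 to 236; 41.7%) in the ISX-9 plate. Slc1a5, a glutamine exchanger, was at 272 CPM (264 to 280; 58.7%) and 227 CPM (219 to 236; 51.4%). Its log2 ratio of -0.25 turned to 0.22 as a mean of per-well CPM, so no direction is given for it. Slc1a4, which carries alanine, serine and cysteine, was at 123 CPM (117 to 129; 52.3%) and 79.1 CPM (74.1 to 84.3; 39.0%), a log2 ratio of -0.61 that stayed negative in every alternative. Slc6a9, a glycine carrier, was at 57.7 CPM (53.9 to 61.7; 22%) and 33.6 CPM (30.4 to 37.1; 15.5%), a log2 ratio of -0.70 that also stayed negative.

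Slc43a1 and Slc43a2, facilitators of large neutral amino acids, both had positive log2 ratios. Slc43a1 had 101 reads in 27 wells of the DMSO plate, 6.85 CPM (5.58 to 8.32), and 262 reads in 64 wells of the ISX-9 plate, 22.2 CPM (19.6 to 25.1), 3.24-fold more (2.57 to 4.12; log2 ratio 1.20). Slc43a2 went from 20.7 to 31.3 CPM, with a log2 ratio of 0.50 that turned to -0.09 as a mean of per-well CPM. Slc36a1, a proton-coupled carrier of small amino acids that is found on lysosomes and on the brush border, was at 30.6 CPM (27.8 to 33.5; 22.7% of wells) in the DMSO plate and 63.5 CPM (59.0 to 68.2; 33.4%) in the ISX-9 plate. It stood 2.08-fold higher (1.84 to 2.34), but its log2 ratio with the added 5 CPM was 0.94 and so just missed the 2-fold limit. 3 further Slc38 members among the 15 highest, Slc38a10 at 60.4 and 65.5 CPM, the lysosomal arginine sensor Slc38a9 at 27.8 and 39.7 CPM, and the lysosomal Slc38a7 at 28.2 and 35.8 CPM, had log2 ratios of 0.11, 0.45 and 0.30, and of these the ratio of Slc38a7 alone kept its sign in every alternative.

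Of the Slc6 carriers, which pump with sodium and chloride, the creatine carrier Slc6a8 was the member past the 2-fold limit. It had 155 reads in 45 wells of the DMSO plate, 10.5 CPM (8.92 to 12.3), and 328 reads in 82 wells of the ISX-9 plate, 27.8 CPM (24.9 to 31.0). The level was 2.65-fold higher (2.18 to 3.22; log2 ratio 1.08), and it fell below the limit with scaling by the median of ratios or by spike-in reads and with CPM + 10. The taurine carrier Slc6a6 was the highest of the group at 227 CPM (219 to 234; 53.7% of wells) and 262 CPM (253 to 271; 63.8%), with a log2 ratio of 0.20 that does not keep its sign in every alternative. The serotonin reuptake carrier Slc6a4 was low in both plates, at 8.20 CPM (6.81 to 9.80) in 26 wells and 11.4 CPM (9.59 to 13.5) in 34 wells.

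Among sugar carriers, the facilitative carriers for fructose and glucose showed the widest ratios. Slc2a5, the fructose carrier, had 49 reads in 20 wells of the DMSO plate, 3.32 CPM (2.46 to 4.39), and 216 reads in 52 wells of the ISX-9 plate, 18.3 CPM (15.9 to 20.9), 5.51-fold more (4.03 to 7.68; log2 ratio 1.49). Slc2a3, a glucose carrier of high affinity, had 4 reads in the DMSO plate, all from 1 well (0.271 CPM, 0.0739 to 0.694), and 187 reads in 22 wells of the ISX-9 plate (15.8 CPM, 13.7 to 18.3). The ratio was 58.4 with an interval of 22.5 to 217. Slc2a1, the widespread glucose carrier, was at 26.0 and 26.9 CPM, and the sodium-coupled glucose and galactose carrier Slc5a1 at 108 CPM (102 to 113; 28.3% of wells) and 122 CPM (116 to 129; 36.6%), with log2 ratios of 0.04 and 0.18 that do not keep their sign under every scaling. Of the Slc2 carriers 2 of 5, and of the Slc5 carriers 0 of 4, passed the 2-fold limit upwards, as 5.33% of all genes did. Wells with a Slc2a5 read had a median enterocyte marker sum of 1001 CPM with DMSO and 959 CPM with ISX-9, against 523 and 491 CPM in wells without one, and the part of this in the Slc2a5 result was not tested. Of these markers Vil1 was at 299 and 292 CPM and Sis at 234 and 442 CPM over all wells, while Fabp1 and Apoa4 were at 0.34 CPM or less and Alpi had 0 reads with DMSO.

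Of the monocarboxylate carriers, Slc16a1 and Slc16a3, which move lactate and pyruvate, had positive log2 ratios. Slc16a1 went from 49.3 CPM (45.8 to 53.0; 27.3% of wells) to 78.3 CPM (73.3 to 83.5; 35.9%), and Slc16a3 from 18.4 CPM (16.3 to 20.8; 20.3%) to 38.6 CPM (35.2 to 42.3; 35.9%). Their log2 ratios were 0.62 and 0.90, and both stayed positive in every alternative. Slc16a12, a creatine carrier, went the other way, from 17.4 CPM (15.3 to 19.6) in 38 wells to 6.02 CPM (4.70 to 7.59) in 22 wells, 2.88-fold higher in the DMSO plate (2.21 to 3.81; log2 ratio -1.02). Slc16a6 fell just short of the limit with a log2 ratio of -0.998 (11.9 CPM against 3.47 CPM). This ratio ran from -1.53 to 0.02 over the alternatives and so did not keep its sign. Slc16a12 was lower and Slc6a8 higher in the ISX-9 plate, though both carry creatine.

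The proton-coupled peptide carrier Slc15a1 had the lowest log2 ratio of the set. It had 121 reads in 15 wells of the DMSO plate, 8.20 CPM (6.81 to 9.80), and 3 reads in 3 wells of the ISX-9 plate, 0.254 CPM (0.0524 to 0.743). The level was 32.3-fold higher in the DMSO plate (10.8 to 159; log2 ratio -1.33), but 66.9% of its DMSO reads came from 3 wells, and 116 of the 121 from wells high for none of the class genes. Slc15a4, a lysosomal carrier of histidine and peptides, was level at 12.8 CPM (11.1 to 14.8) and 11.8 CPM (9.90 to 13.9).

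Some carriers known from absorbing enterocytes had few reads, in contrast to Slc5a1 and Slc36a1, and 4 of them are given here for their role, picked after their counts had been seen. Slc7a9, a light chain for cystine and cationic amino acids, had 16 reads with DMSO and 72 with ISX-9, and its heavy chain Slc3a1 had 15 and 13. Slc6a19, a sodium-coupled carrier of neutral amino acids, had 29 and 24 reads, and Slc2a2, the basolateral glucose carrier of enterocytes, had 16 and 1. At these counts no difference between the plates is drawn.

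**Figure D2:**
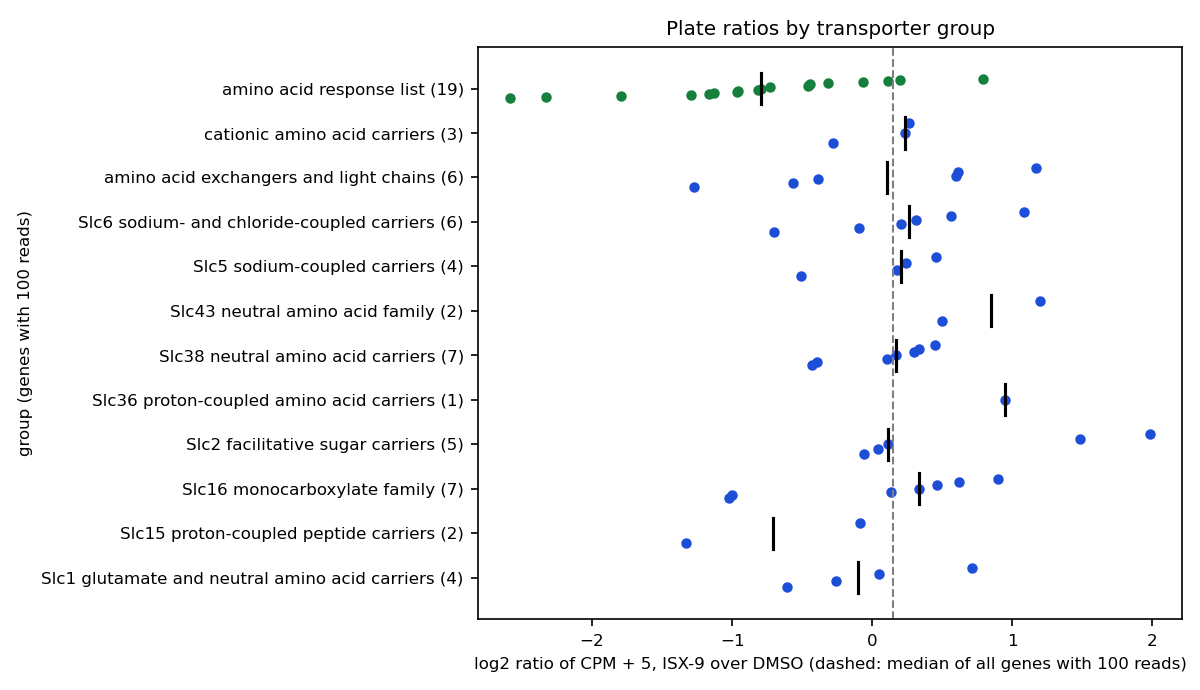
Log2 ratio between the plates (CPM + 5, positive when higher with ISX-9) of each transporter with 100 or more reads (blue points) by group, with the number of genes in parentheses, and of the amino acid response list (green), with group medians as black lines and the median of all genes, 0.15, as a dashed line. Transporter groups spread to both sides of the dashed line, and the amino acid response genes lie mostly to its left.

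Genes that surround the carriers in their pathways were set beside them. Of 21 genes of the amino acid response, the programme that ATF4 drives when amino acids are short, 19 had 100 reads, and 6 of them were 2-fold or more lower in the ISX-9 plate and 0 higher, beside 1.11% and 5.33% of all genes, with 3 positive log2 ratios and a median of -0.79 beside 0.15 for all genes. Chac1, which breaks down glutathione, went from 113 to 14.7 CPM (log2 ratio -2.58), Nupr1, a stress regulator, from 80.5 to 12 CPM (-2.33), Cth, which makes cysteine, from 73.1 to 17.5 CPM (-1.79), and Mthfd2, of the mitochondrial folate cycle, from 97.9 to 36.9 CPM (-1.29).

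The same shares of all genes, 5.33% higher and 1.11% lower, stand beside the next 3 lists. Of 9 transporter partners and ion pumps with 100 reads, 1 was 2-fold or more higher and 0 lower, with a median of 0.24. Pdzk1ip1, a small membrane partner of sodium-coupled sugar carriers, went from 9.15 to 24.4 CPM (1.06), the scaffold Slc9a3r1 had a log2 ratio of 0.51, Bsg, the chaperone of the lactate carriers, one of 0.31, and the peptidase Anpep one of -0.27. Of 14 genes of sugar use and glycolysis, 0 passed the limit in either direction, with a median of 0.29, among them the disaccharidase Sis at 0.90, hexokinase Hk1 at 0.87, lactate dehydrogenase Ldha at 0.61 and the glucosidase Mgam at -0.60. Of 7 nutrient sensing genes, 1 was higher and 1 lower, with a median of 0.02. The lower one, Gpr119, lies under the mean of 10 CPM used to choose names from these lists. It had 113 reads in 2.0% of DMSO wells and 6 reads in 0.345% of ISX-9 wells. The lysosomal GTPase Rragd, which works with mTORC1, went from 6.98 to 21.3 CPM (1.13). Trpm5, the channel of taste signalling, had a log2 ratio of 0.79, with a read in 2.33% of DMSO and 2.41% of ISX-9 wells. Abcc8, a subunit of the ATP-sensitive potassium channel, had one of -0.59. Lamtor5, of the lysosomal complex that holds the Rag GTPases, had one of 0.37.

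Wells were then grouped by 3 lineage genes that are not transporters: Neurog3, Tph1, which makes serotonin and marks enterochromaffin cells, and Muc2, the mucin of goblet cells. A well counted as high for a gene with 1000 CPM or more and 3 or more reads of it, and a well high for more than 1 gene was kept apart. In the DMSO plate, 33 wells (11%) were Neurog3-high, 47 (15.7%) Tph1-high, 81 (27.0%) Muc2-high, 14 high for several genes and 125 high for none. In the ISX-9 plate these numbers were 84 (29.0%), 43 (14.8%), 36 (12.4%), 22 and 105. The classes are ranges of 1 gene and not cell types: between 20 and 48 wells of each plate and gene lay within 500 to 2000 CPM. The summed level of enterochromaffin markers was 14730 CPM in Tph1-high wells of the DMSO plate and 13465 CPM in those of the ISX-9 plate. Goblet markers summed to 28511 and 21705 CPM in Muc2-high wells. These sums include the genes that define the classes and are in part fixed by them. Tph1 itself held 4139 and 2848.5 CPM of the first pair, and Muc2 held 6305 and 4084 CPM of the second. Muc2-high wells also held 30196 and 14957 CPM of Paneth markers. Median reads per well were 24056 and 28173 in Neurog3-high, 15730 and 17226 in Tph1-high, 37313 and 13358 in Muc2-high and 30001 and 26233 in the wells high for none, called other wells from here on.

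Each class was compared with the other wells of its own plate, and a transporter is counted where it passed 2-fold in the same direction in both plates. The 3 contrasts share these other wells. Such wells were neither free of endocrine markers nor alike in both plates. Enteroendocrine markers summed to 4877 CPM in them with DMSO and 9440 CPM with ISX-9, beside 6894 and 9352 CPM in Neurog3-high wells. Paneth markers summed to 7294 and 1306 CPM in other wells. 3 transporters were higher in Neurog3-high wells, where 2.54% of all genes were, and 3 lower, where 2.33% were. 4 were higher in Tph1-high wells, where 3.16% of all genes were, and 0 lower, where 2.42% were. 0 were higher in Muc2-high wells, where 1.22% of all genes were, and 2 lower, where 3.93% were. Of the calls, that of Slc36a1 in Neurog3-high wells held in all 13 alternatives, and those of Slc1a4 in Neurog3-high and of Slc38a11 in Tph1-high wells in 12 of 13.

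**Figure D3:**
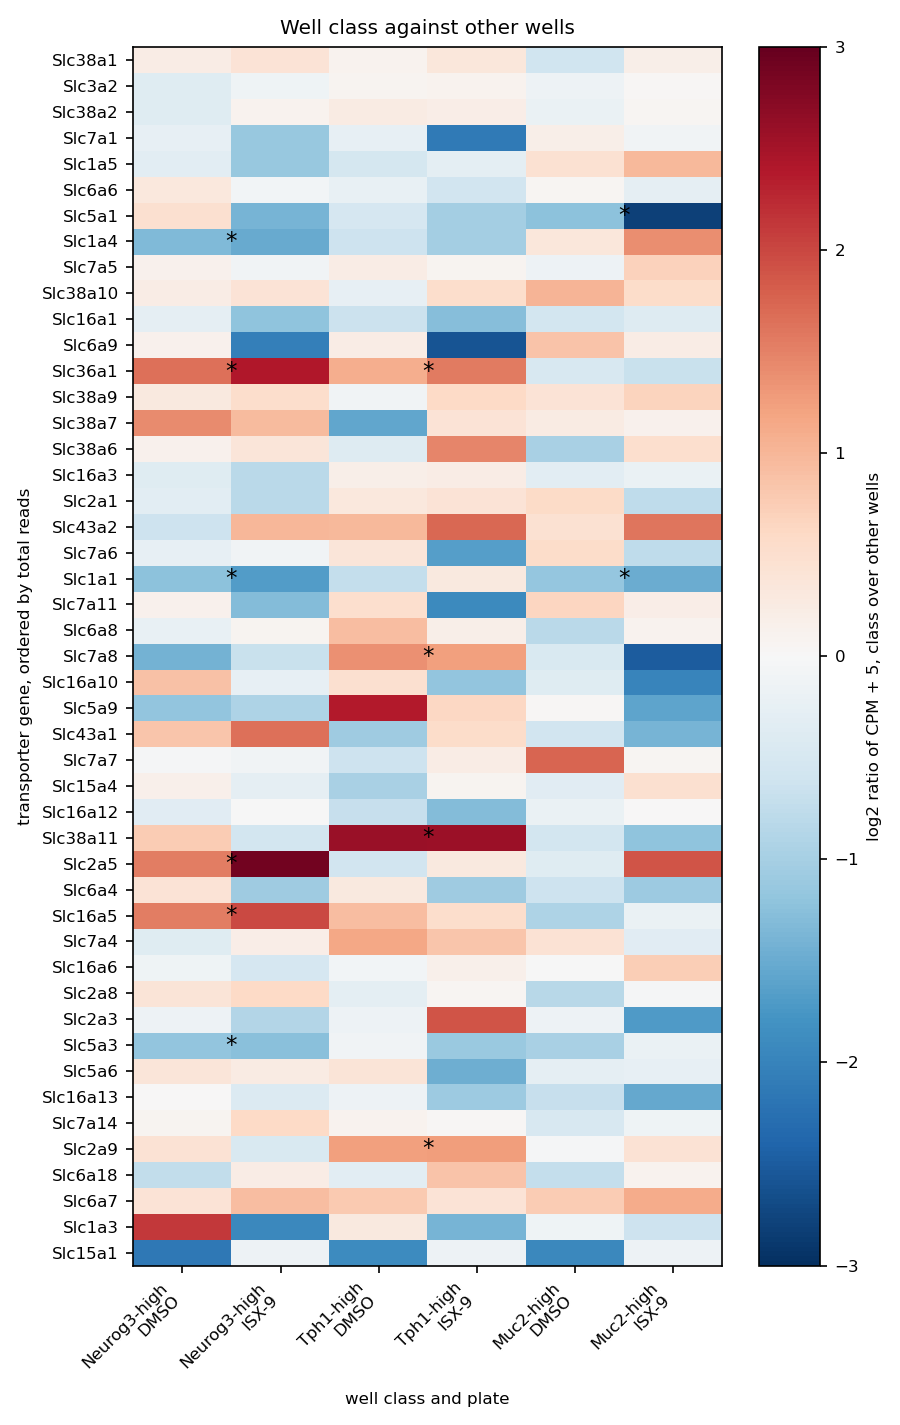
Log2 ratio of CPM + 5 of each transporter with 100 or more reads in Neurog3-high, Tph1-high and Muc2-high wells against other wells of the same plate, with a column for each class and plate and genes ordered by their total reads. Red is higher and blue lower in the class, and a star between the 2 columns of a class marks a difference of 2-fold or more in both plates, such as Slc36a1 under Neurog3-high and Slc38a11 under Tph1-high.

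Slc36a1, the proton-coupled carrier of small amino acids, was higher in Neurog3-high wells under every choice tried. In Neurog3-high wells it was at 81.6 CPM in the DMSO plate (67.8 to 97.5), with a read in 18 of 33 wells, and at 148 CPM in the ISX-9 plate (135 to 162), with a read in 41 of 84 wells. Other wells were at 22.4 CPM (19.0 to 26.2; 23 of 125 wells) and 23.7 CPM (19.8 to 28.2; 30 of 105 wells). The ratio was 3.65 in the DMSO plate (2.85 to 4.66) and 6.24 in the ISX-9 plate (5.13 to 7.64). Wells high for several genes, kept out of this class, held Slc36a1 at 20.4 CPM with DMSO and 57.8 CPM with ISX-9. All of these but 1 ISX-9 well were also high for Neurog3, so the values above hold for wells high for Neurog3 alone. With every well thinned to 2000 reads, a read was left in 9.09% of Neurog3-high and 3.20% of other wells in the DMSO plate, and in 19.0% and 5.71% in the ISX-9 plate. Wells with a Slc36a1 read had a median enterocyte marker sum of 809 CPM with DMSO and 822 CPM with ISX-9, against 456 and 419 CPM in wells without one, and the part of this in the Slc36a1 result was not tested.

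Slc2a5, the fructose carrier, was also higher in Neurog3-high wells of both plates. It was at 16.7 CPM in Neurog3-high wells of the DMSO plate (10.8 to 24.7; 9 of 33 wells) and 52.5 CPM in those of the ISX-9 plate (44.7 to 61.2; 33 of 84 wells), against 2.49 CPM (1.45 to 3.98) and 2.72 CPM (1.52 to 4.48) in other wells. The ratios were 6.72 (3.49 to 13.3) and 19.3 (11.4 to 35.3), but the call was lost when every well was thinned to 2000 reads, which left a read in 3.03% of Neurog3-high and 0% of other wells with DMSO and in 5.95% and 3.81% with ISX-9. Tph1-high wells had 0 Slc2a5 reads with DMSO and 6 with ISX-9, 0 and 4.44 CPM, while Muc2-high wells of the ISX-9 plate held 29 reads (23.8 CPM). Wells high for several genes held Slc2a5 at 6.79 CPM with DMSO and 4.96 CPM with ISX-9. Enterocyte markers summed to 1227 and 1433 CPM in Neurog3-high wells against 1013 and 810 CPM in other wells. Their sums were 940 and 1454 CPM in Tph1-high and 552 and 460 CPM in Muc2-high wells. The part of these markers in the Slc2a5 result was not tested.

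Slc16a5, of the monocarboxylate family, was at 26.8 CPM (19.1 to 36.5) and 29.0 CPM (23.3 to 35.6) in Neurog3-high wells and at 6.0 CPM (4.31 to 8.14) and 3.62 CPM (2.21 to 5.60) in other wells. Its call was lost after thinning as well. Unlike Slc2a5, it stood at nearly the same level in the Neurog3-high wells of both plates. Wells high for several genes held Slc16a5 at 1.70 CPM with DMSO and 16.5 CPM with ISX-9. Slc43a1 passed the limit in the ISX-9 plate alone, at 49.9 CPM (42.4 to 58.4) against 12.5 CPM (9.73 to 15.8), while its DMSO values of 17.4 CPM (11.4 to 25.5) against 7.61 CPM (5.68 to 9.98) gave a log2 ratio of 0.83. Of the 84 Neurog3-high wells of the ISX-9 plate, 41 had a Slc36a1 read, 33 a Slc2a5 read and 24 both.

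The lower members in Neurog3-high wells were 2 carriers of the Slc1 family and the inositol carrier Slc5a3. Slc1a4 was at 49.5 CPM (38.9 to 62.2; 10 of 33 wells) and 25.4 CPM (20.1 to 31.7; 16 of 84 wells) in Neurog3-high wells, against 131 CPM (122 to 140; 68 of 125 wells) and 81.5 CPM (74.2 to 89.4; 59 of 105 wells) in other wells. It was 2.64-fold (2.08 to 3.39) and 3.21-fold (2.52 to 4.12) higher in other wells, and the share of wells with a read differed the same way. Wells high for several genes held Slc1a4 at 71.3 CPM with DMSO and at 136 CPM with ISX-9, the latter above other wells. Slc1a1, a sodium-coupled glutamate carrier, was at 9.37 CPM (5.12 to 15.7) and 5.80 CPM (3.44 to 9.16) against 28.5 CPM (24.7 to 32.8) and 29.5 CPM (25.2 to 34.4), though in the DMSO plate it was found in 12.1% of Neurog3-high and 11.2% of other wells. Slc5a3 rested on 1 read and 9 reads in the class, and its call was lost in 5 of 13 alternatives.

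A finer split of all kept wells by the Neurog3 level used limits at 1000 and 5000 CPM, chosen after values had been seen. It did not use the classes, so its steps also take in wells high for Tph1 or Muc2. Slc36a1 was at 15.4 CPM in DMSO wells without a Neurog3 read, 32.1 CPM in those below 1000 CPM, 50.9 CPM in those from 1000 to below 5000 CPM and 122 CPM in the 18 wells at or above 5000 CPM. In the ISX-9 plate the 4 values were 29.9, 31.9, 83.1 and 168 CPM, the last over 63 wells. The highest DMSO step rested on 48 Slc36a1 reads in 6 wells. The share of wells with a Slc36a1 read did not rise at every step. It was 12.4%, 28.0%, 51.7% and 33.3% with DMSO and 20.3%, 31.1%, 28.6% and 57.1% with ISX-9. Slc1a4 was lowest in the highest step of both plates, with no steady order before it with ISX-9, at 136, 133, 64.6 and 17.7 CPM with DMSO and 78.7, 102, 92.4 and 10.01 CPM with ISX-9. Slc1a1 had 0 reads in the wells at or above 5000 CPM of either plate. This allows up to 7.59 CPM and 1.37 CPM, against 15.1 and 25.3 CPM in wells without a Neurog3 read, and a read in up to 16.7% and 4.76% of the wells, against 8.50% and 13.9%, so that with DMSO a difference in the share of wells was not detectable. Slc43a1 was at 3.16, 6.86, 9.48 and 45.6 CPM over the 4 steps with DMSO, the last from 18 reads in 5 wells, and at 7.69, 13.9, 31.9 and 52.3 CPM with ISX-9. Median reads of the 4 steps ran from 13863 to 39272 with DMSO and from 11841 to 34500 with ISX-9 and did not follow the order of the steps.

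**Figure D4:**
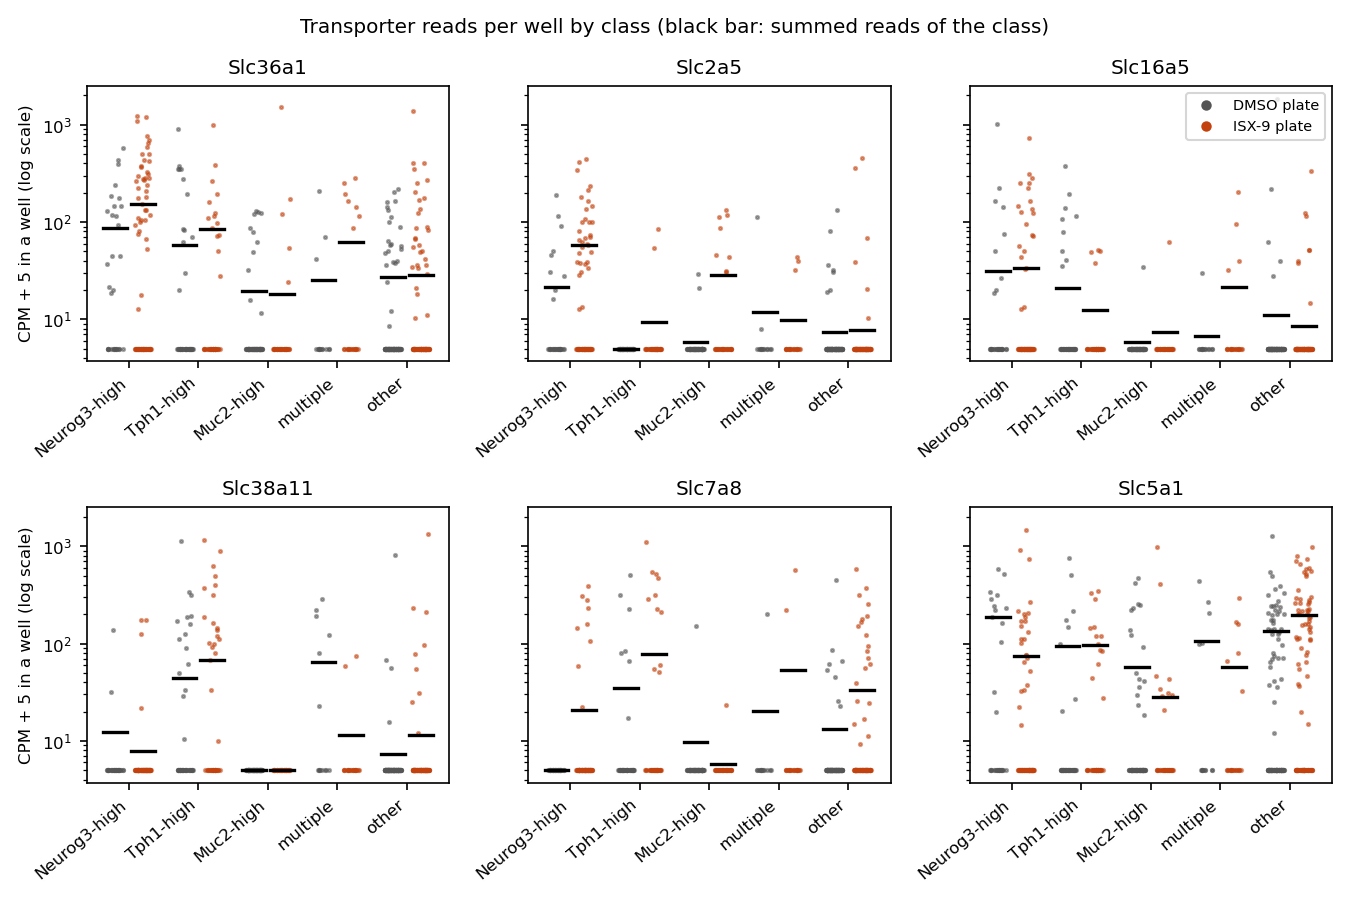
CPM + 5 of 6 transporters in each kept well (points, log axis) by well class in the DMSO plate (grey) and the ISX-9 plate (orange), with the level of the summed reads of each class as a black bar. Wells without a read lie at 5. Slc36a1 and Slc2a5 have their highest bars in Neurog3-high wells of the ISX-9 plate, Slc38a11 in Tph1-high wells of that plate, and Slc5a1 has a low bar in Muc2-high wells.

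Slc38a11, a little-studied member of the Slc38 family, was higher in Tph1-high than in other wells. It was at 39.1 CPM in Tph1-high wells of the DMSO plate (31.0 to 48.7; 15 of 47 wells) and at 62.9 CPM in those of the ISX-9 plate (50.3 to 77.8; 20 of 43 wells). Other wells were at 2.34 CPM (1.34 to 3.80; 4 of 125 wells) and 6.52 CPM (4.57 to 9.03; 9 of 105 wells), ratios of 16.7 (9.67 to 30.6) and 9.65 (6.46 to 14.7). Muc2-high wells had 0 reads in either plate, which allows a read in up to 3.70% of the wells with DMSO and 8.33% with ISX-9. Neurog3-high wells stood at 7.36 CPM (3.67 to 13.2) and 2.90 CPM (1.33 to 5.50), so this carrier was low in the wells where Slc36a1 was highest. Wells high for several genes held Slc38a11 at 59.4 CPM with DMSO and 6.61 CPM with ISX-9. Over all wells its level hardly differed between the plates, at 9.56 and 11.4 CPM.

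The other 3 members higher in Tph1-high wells were less firm. Slc36a1 was at 53.5 CPM (43.9 to 64.5) and 79.2 CPM (64.9 to 95.7), ratios of 2.39 (1.85 to 3.07) and 3.34 (2.56 to 4.34) against other wells, and its log2 ratio in the DMSO plate was 0.93 without the well that held most of its reads in each class. Slc7a8 was at 29.7 CPM (22.7 to 38.2; 7 of 47 wells) and 72.5 CPM (58.9 to 88.4; 11 of 43 wells) against 8.34 CPM (6.32 to 10.8) and 28.1 CPM (23.8 to 32.9), but 55.0% of its reads in the DMSO class came from 1 well, without which the log2 ratio was 0.99. Slc2a9, a urate carrier, had 31 reads in 2 wells and 21 reads in 6 wells of the class, and its call was lost in 7 of 13 alternatives. Slc5a9, a sodium-coupled sugar carrier, was at 69.8 CPM (58.7 to 82.3; 12 of 47 wells) in Tph1-high wells of the DMSO plate and at 21.5 CPM (14.4 to 30.8; 5 of 43 wells) in those of the ISX-9 plate, against 9.37 and 12.3 CPM in other wells, and did not pass in both.

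Muc2-high wells had less of the glucose carrier Slc5a1 than other wells. It was at 51.9 CPM (44.9 to 59.6; 16 of 81 wells) in the DMSO plate and 22.9 CPM (15.2 to 33.2; 9 of 36 wells) in the ISX-9 plate, against 128 CPM (120 to 137; 43 of 125 wells) and 189 CPM (178 to 201; 53 of 105 wells) in other wells. It was thus 2.47-fold (2.12 to 2.90) and 8.25-fold (5.68 to 12.5) higher in other wells. In the ISX-9 plate Slc5a1 was also 2-fold or more lower in Neurog3-high (69.2 CPM) and Tph1-high wells (91.1 CPM) than in other wells. With DMSO these 2 classes stood at 181 and 89.6 CPM. The call in Muc2-high wells was lost without the deepest 5% of wells and after thinning to 2000 reads. Thinning left a read in 4.94% of Muc2-high and 10.4% of other wells with DMSO and in 5.56% and 23.8% with ISX-9. Slc1a1 was lower too, at 9.95 CPM (7.04 to 13.7) and 7.37 CPM (3.37 to 14) against 28.5 and 29.5 CPM. Slc1a4 and Slc1a5 stood high in these wells, at 222 CPM (196 to 250) and 483 CPM (445 to 524) in the ISX-9 plate and at 167 CPM (154 to 180) and 350 CPM (331 to 369) in the DMSO plate, though only in the ISX-9 plate did Slc1a4 pass 2-fold over other wells.

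The 8 transporters that differed 2-fold between the plates, and Slc36a1 just short of it, were also read within the classes, with values given as DMSO and ISX-9. Slc6a8 stood at 8.03 and 28.0 CPM in Neurog3-high, 23.8 and 30.4 CPM in Tph1-high, 3.67 and 28.7 CPM in Muc2-high and 10.1 and 26.3 CPM in other wells, so its ISX-9 level was near the same value in each of these. Slc2a5 was at 16.7 and 52.5 CPM in Neurog3-high, 0 and 4.44 CPM in Tph1-high and 0.786 and 23.8 CPM in Muc2-high wells, and at 2.49 and 2.72 CPM in other wells. Its plate difference was thus seen in Muc2-high as well as Neurog3-high wells and hardly in other wells. Slc36a1 was at 14.7 and 13.1 CPM in Muc2-high and 22.4 and 23.7 CPM in other wells, beside the higher ISX-9 values in Neurog3-high and Tph1-high wells given before.

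Slc43a1 was at 17.4 and 49.9 CPM in Neurog3-high, 0.990 and 20.7 CPM in Tph1-high, 3.40 and 1.64 CPM in Muc2-high and 7.61 and 12.5 CPM in other wells. Slc7a8 was at 0 and 15.8 CPM in Neurog3-high, 29.7 and 72.5 CPM in Tph1-high, 4.71 and 0.819 CPM in Muc2-high and 8.34 and 28.1 CPM in other wells. In Muc2-high wells the ISX-9 values of these genes come from 2 reads and 1 read, and no direction is drawn there. Slc2a3 had 87 of its 187 ISX-9 reads in 8 of 43 Tph1-high wells (64.4 CPM, 51.6 to 79.4), and 0 reads in the 47 Tph1-high wells of the DMSO plate.

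Slc7a11 was lower in the ISX-9 plate in Neurog3-high (26.1 and 2.58 CPM), Tph1-high (35.1 CPM and 0 reads), Muc2-high (39.0 and 16.4 CPM) and other wells (23.3 and 13.8 CPM). Slc16a12 was lower there too, at 15.4 and 7.08 CPM in Neurog3-high, 10.9 CPM and 0 reads in Tph1-high, 17.3 and 7.37 CPM in Muc2-high and 20.6 and 7.25 CPM in other wells. Slc15a1 had 116 and 3 reads in other wells, and 5 and 0 reads in the 3 high classes together. Differences between classes in these plate ratios were not tested.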

How the data were processed

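The authors deposited 1 table of raw read counts per plate, genes by 384 wells, 1 plate per treatment. Per the labels' protocols the molecular barcode has 4 bases (256 combinations), and the counts are reads, so copies of a molecule are counted more than once. Per the submitters' processing notes BWA was used (no version given) with the build hg19, while the rows carry mouse symbols. All 87 symbols are in GENCODE mouse release M21 on the same chromosome. The rule for counting, and so the handling of reads shared by paralogs or overlapping genes, was not given in the sources used here.

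From these counts, spike-in and mitochondrial rows were taken out, wells were filtered, reads were summed per plate or class and scaled to CPM, and a pseudocount of 5 CPM was added before log2 ratios. A gene listed for 1 plate alone was set to 0 in the other (7 members for each plate). Exact 95% Poisson intervals of sums, conditional exact intervals of ratios and the floor of 3 counts cover counting error only. Doublets were not called. To compare shares at equal depth, wells were thinned to 2000 reads. Python 3.11.15, numpy 2.4.6, pandas 2.3.3, scipy 1.17.1 and matplotlib 3.10.9 were used, and the ratios were checked on simulated counts.

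No test between treatments was possible with 1 library each, and cells are not replicates. The plates share all 384 well names, which are plate positions. Members and lists were chosen with earlier results of these data known. Named in full were the 15 highest members, those differing 2-fold between plates with the share of wells differing the same way, those differing 2-fold in a class in both plates, and up to 4 genes with a mean of 10 CPM or more of each companion list; further members, named for their role or for a pattern in 1 plate, were chosen after their values were seen. Cltrn and Map17 are other names of the listed Tmem27 and Pdzk1ip1, which were measured. G6pc, Tkfc, Casr, Tas1r1, Tas1r2, Lpar5, Gnat3, Ffar1 and Castor1 of these lists were not matched by symbol and are not analysed here. Alternatives covered scaling, totals, weighting, well filters, pseudocounts, thinning, read limits and class limits.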

Additional observations from a re-analysis of the deposited data

Results flagged for a closer look

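Slc1a3, a glutamate carrier, differed in opposite directions between the plates when Neurog3-high wells were set against other wells. The log2 ratio was 2.13 in the DMSO plate, from 30 reads in 2 of 33 class wells and 5 reads in other wells, and -1.94 in the ISX-9 plate, from 0 reads in 84 class wells and 78 reads in 8 other wells. In the DMSO plate, 1 well held 47.5% of all reads of this gene. The difference between the plates was not tested.

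The wells that failed the filter held transporter reads that enter no comparison: 148 reads in 84 DMSO wells and 188 reads in 94 ISX-9 wells. This corresponds to 927 and 1694 CPM of their nuclear reads, against 2708 and 2672 CPM in the kept wells.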

How the results depend on the processing

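No paired analysis was possible because each treatment has 1 plate. All 8 transporters past 2-fold between the plates kept their direction in every alternative, as did 26 of the 47 in all, and no result reversed while past the limit. Between the plates, 5 transporters were higher; this became 3 with spike-in scaling, 8 with CPM + 1, 2 with CPM + 10, 8 after thinning to 2000 reads and 3 with 300 reads required. The 3 lower became 1 with CPM + 10. Slc7a8 fell below the limit with spike-in scaling and CPM + 10, Slc43a1 with CPM + 10 and thinning, Slc16a12 with the mean of per-well CPM, without its highest wells and with CPM + 10, Slc15a1 with CPM + 10 and Slc7a11 with the mean of per-well CPM, while Slc2a5 and Slc2a3 stayed past it in each alternative run for them. In Neurog3-high wells, the 3 higher became 5 with the mean of per-well CPM, without the deepest 5% of wells and with a class limit of 2000 CPM, 6 with CPM + 1 and 1 with 300 reads required, and the 3 lower became 1 with CPM + 10 and with the limit of 2000 CPM. In Tph1-high wells, the 4 higher became 1 without the highest well of each gene and 2 with CPM + 10, with 300 reads required and with a limit of 500 CPM. The 0 lower became 3 with the mean of per-well CPM, 8 without the deepest 5% of wells, 5 after thinning, 1 with the limit of 500 CPM and 2 with that of 2000 CPM. In Muc2-high wells, the 0 higher became 1 with CPM + 1 and with 1 read required, and the 2 lower became 1 without the deepest 5% of wells, with CPM + 10 and with the limit of 500 CPM, 4 with CPM + 1 and after thinning, and 5 with the limit of 2000 CPM. The cause of these shifts was not tested. The shares of all genes given before belong to the main setting alone. Those under the alternatives are not given here, so the counts under the alternatives have no background beside them. Positive log2 ratios numbered 31 of 47, beside 7404 of all 11007 genes. They numbered 25 with the median of ratios and 23 with spike-in scaling, without the numbers of all genes for these scalings. Depth limits members under 100 reads and classes under 50 wells, where 1 well can hold most reads of a gene.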
